A study of Canis lupus familiaris with 20 samples.

Results

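Gene expression in the retina of dogs with normal cone function was compared between eyes given ciliary neurotrophic factor (CNTF) and eyes given phosphate-buffered saline (PBS). The right eye of each of 5 dogs received 12 µg of CNTF into the vitreous, the left eye of the same dog received PBS, and both retinas were taken 1 week later. Of the 5 dogs, all male animals of a research colony, 4 were carriers with 1 mutant copy of CNGB3 (CNGB3+/m) and dog 3 was homozygous wild type (CNGB3+/+), so the group is mostly heterozygous for the cone channel mutation that the series studies. The sample labels give these 5 dogs an age of 8.9 weeks and the series text about 11 months, and age was not used. One single-colour array was used per retina, which makes 10 of the 20 arrays in the series. The other 10 arrays, from CNTF and PBS eyes of 5 dogs with 2 mutant copies, entered the same fit. The sample labels give those dogs an age of 10.7 to 11.5 weeks, so labelled age differs with genotype. Their arrays are used only where a difference between genotypes was tested or slides were compared. Probes were chosen by a rule that does not use the comparison: any probe that is not a control and was well above background on at least 4 of the 5 arrays of either group. This kept 29264 of the 43603 distinct probes on the array, 16224 of them with a gene symbol, for 10249 genes. A gene with several probes is represented by the one with the highest mean signal. Of the 10249 genes, 9086 passed in both groups, 1028 through the PBS arrays only and 135 through the CNTF arrays only. A gene that passed through 1 group only was kept because of its level in that group, whether or not its change was called. Counts over the list members that passed therefore describe those members and support nothing further.

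CNTF is a cytokine of the interleukin 6 family. It binds the receptor CNTFR, which recruits LIFR and the shared signalling chain gp130, and these activate Janus kinases and the transcription factor STAT3. In the retina Müller glia and photoreceptors are known to respond to it. It is known as a factor that slows the loss of photoreceptors in models of retinal degeneration while lowering the expression of genes for light detection.

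Levels are given as log2 signal relative to the 75th percentile of the same array, so that 0 is that percentile and a step of 1 is a doubling of signal. Changes are log2 differences, CNTF minus PBS, with the standard error of the fit, and a change was called when its adjusted p was under 0.05. Where a probe was not well above background on any array of 1 group, or was saturated on all of them, the fold is given as "at least". That bound sets the mean of the brighter group against, on each array of the dim group, the higher of the probe's own signal and the lowest signal among probes well above background. A saturated spot enters at its measured value. Levels of different probes are not set against each other, since probes differ in efficiency.

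The measurements rest on probes of 60 bases, and the probes behind 4 of the main results are printed here because each spans more genomic sequence than its own length, so that it reads spliced transcripts. Positions refer to canFam2 as the array files give them. The probes for complement C3 and for the class II invariant chain CD74 stand for the rises in immune genes, that for the cone arrestin ARR3 for the falls in cone genes, and that for GUCA1A, a calcium sensor of photoreceptors, for the falls in genes that rods and cones share. The C3 probe lay on chr20:56542868-56543122 (plus strand), that for CD74 on chr4:61899122-61900202 (plus strand), that for ARR3 on chrX:57655235-57656851 (plus strand) and that for GUCA1A on chr12:13799075-13799399 (plus strand). All letters are in lower case, since no base within them is singled out.
C3: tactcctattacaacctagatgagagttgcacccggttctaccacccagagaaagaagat
CD74: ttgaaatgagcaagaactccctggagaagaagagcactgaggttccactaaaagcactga
ARR3: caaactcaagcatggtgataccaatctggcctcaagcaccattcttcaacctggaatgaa
GUCA1A: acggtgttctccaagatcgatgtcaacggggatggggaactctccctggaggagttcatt
Which exon or untranslated part each probe covers was not assigned, since no genome of that build was used here.

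The arrays of the CNTF eyes had fewer probes above background than those of the PBS eyes, 56.1 to 65.3% against 67.1 to 71.8%, and the ranges did not overlap. The 75th percentiles ranged from 354 to 529 in intensity on the CNTF arrays and from 454 to 592 on the PBS arrays. On the 27777 kept probes measured on all 20 arrays of the series, principal component 1 of the 10 normal arrays took up 67.9% of their variance. Its scores were -91.6 to -37.9 for PBS and 42.1 to 91.4 for CNTF arrays. Treatment and slide cannot be told apart within the normal dogs. Slide 1 held the PBS arrays of dogs 1 to 4, slide 2 the PBS array of dog 5, slide 3 the CNTF arrays of dogs 1 and 2 and slide 4 those of dogs 3 to 5. Mutant arrays on slides 2, 3 and 4 link the slides, so a fit with slide in place of the dog (the slide-block fit) could be made. On slide 3 alone the CNTF arrays of dogs 1 and 2 could be set against PBS arrays of mutant dogs. That slide 3 contrast joins treatment, genotype and labelled age (8.9 against 10.7 weeks). The slide-block fit and the slide 3 contrast are given beside the leading results. In the slide-block fit, 107 of the 238 genes with values here kept their direction but were no longer called, and 12 changed direction. Retinal identity of the samples was clear from the arrestin SAG of rods, at saturation in both groups, while 0 of the 3 red cell markers on the array passed the filter.

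CNTF and PBS eyes differed at a large share of the measured transcripts. Of 29264 probes, 15027 (51.3%) were called, 6908 of them higher (23.6%) and 8119 lower (27.7%) in CNTF eyes. A call with a change of at least 2-fold was made for 1789 probes (6.11%) that were higher and 1930 (6.6%) that were lower. For 8801 probes (30.1%) the 5 PBS and 5 CNTF arrays did not overlap. Counted by gene, 5309 of 10249 (51.8%) were called: 2888 (28.2%) rose and 2421 (23.6%) fell, 734 (7.16%) and 497 (4.85%) of them by at least 2-fold, and 3119 genes (30.4%) had PBS and CNTF arrays that did not overlap. The median change over all genes was 0.005. The split depends on background correction and scaling: 46.0% of the called probes were higher in the chosen fit, 61.0% with normexp background correction, 47.3% with quantile normalization and 35.4% when the percentile was taken over probes detected on all arrays. The median over all genes was 0.120 with normexp and -0.098 with that percentile. Small changes are therefore read relative to these medians. Each list below can be read against 28.2% of all genes higher and 23.6% lower.

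The plot of list medians by dog orders the main gene groups by their change.

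**Figure D1:**
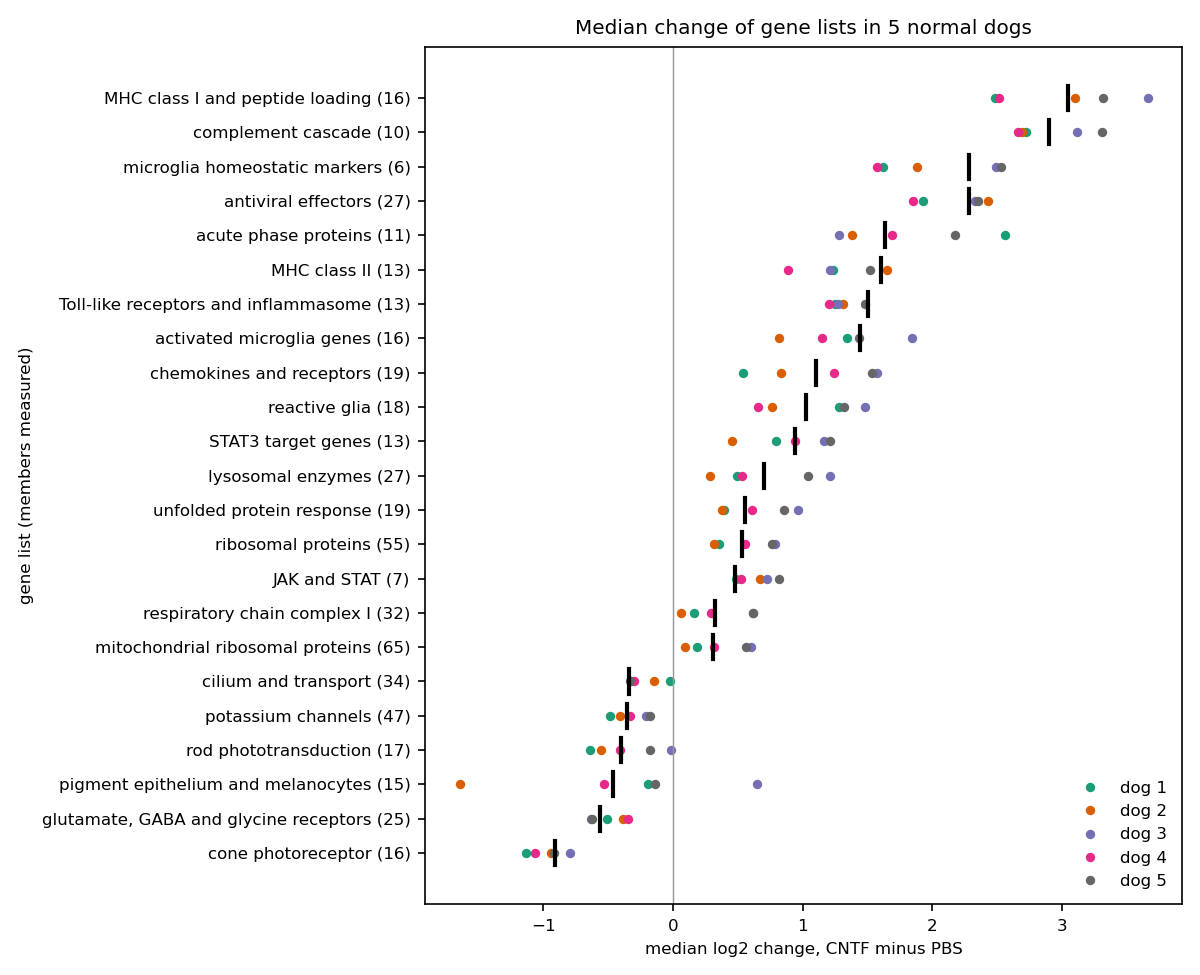
Median log2 change (CNTF minus PBS) of the measured members of each gene list; small points are the 5 normal dogs, the black bar is the median of the fitted changes over the members, and the number of members that passed the filter stands beside each list. MHC class I genes sit highest at 3.05 and cone genes lowest at -0.91, against 0.005 for all genes.

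Ligands and receptors of the CNTF pathway were mostly not called, and most of its kinases and transcription factors rose. Of 14 gp130 cytokines and receptors 8 passed the filter, and of these 1 rose and 1 fell. The fall was at least 2-fold, and the lowest change of the list was -1.70. CTF1, cardiotrophin 1, another ligand of the family, rose by 0.93 ± 0.20. Of 7 Janus kinases and STATs that passed, 5 rose and 0 fell, with a list median of 0.48. The ligand CNTF itself (0.36 ± 0.19, adjusted p = 0.122, and 0.0418 without dog 3) and the receptors CNTFR (-0.21 ± 0.26, adjusted p = 0.503, 2 of 5 CNTF arrays above background) and LIFR (-0.17 ± 0.30, adjusted p = 0.648) were not called. The LIFR change depended on slide. It came to -2.42 ± 0.68 in the slide-block fit (adjusted p = 0.0607 in limma) and to -0.765 on slide 3 alone.

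STAT3, the main effector of gp130, read 0.43, 0.37, -0.14, 0.11 and -0.15 on the PBS arrays of dogs 1 to 5 and 2.47, 2.30, 2.34, 2.04 and 2.40 on their CNTF arrays. Every CNTF array stood above every PBS array, and the change was 2.18 ± 0.12 (adjusted p = 4.74e-07). It held for each of the 4 STAT3 probes, which changed by 1.72 to 2.18. In the slide-block fit it came to 2.47, and to 1.58 on slide 3 alone. STAT2 rose by 0.46 ± 0.10 and the kinase JAK1 by 0.64 ± 0.10. STAT5B, another cytokine-activated factor, rose by 0.48 ± 0.15 with overlapping groups, a call lost without dog 3, 4 or 5 (adjusted p = 0.0878, 0.0594 and 0.102 in limma) and in the slide-block fit.

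Of 16 inhibitors of the pathway, 11 passed, 2 rose, 2 fell and 7 were not called. PTPN6, a phosphatase of blood-derived cells, rose by 2.06 ± 0.16 and CISH, a suppressor of STAT5 signalling, by 0.79 ± 0.21. SOCS5, a suppressor of cytokine signalling, changed by -0.85 ± 0.14, and all 5 of its probes were called lower. SOCS6, of the same family, changed by -0.57 ± 0.17, a call lost without dog 3 or 5 (adjusted p = 0.0708 and 0.0704). SOCS1 was not called (0.27 ± 0.13, adjusted p = 0.0976). Of 13 known targets of STAT3 that passed, 8 rose and 0 fell, with a median of 0.94 (0.90 with the single gene dim in PBS eyes at its bound, 0.61 on slide 3 alone). Among them were the oncogene MYC (2.16 ± 0.13, 4 of 5 PBS arrays above background), GADD45B, a stress sensor (1.998 ± 0.12), TNFRSF1A, the main receptor for tumour necrosis factor (1.80 ± 0.16), the repressor BCL6 (1.21 ± 0.08) and the survival factors MCL1 (1.10 ± 0.10) and BCL2L1 (0.94 ± 0.14).

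Acute phase genes, which liver cells switch on in response to the same cytokine family, rose in part. Of 19 list members 11 passed, and of these 7 rose and 0 fell, with a median of 1.64 (1.01 on slide 3 alone), and 4 were called higher in the slide-block fit. FGG, the gamma chain of fibrinogen, read -3.10, -2.49, -3.56, -0.93 and -3.67 in the PBS eyes of dogs 1 to 5 and 5.08, 5.68, 4.98, 5.19 and 5.34 in their CNTF eyes. The CNTF eyes were close to each other, while the PBS eye of dog 4 stood above the other PBS eyes. The change was 8.00 ± 0.40. HP, haptoglobin, which binds free haemoglobin, read -3.72, -4.05, -4.20, -3.30 and -4.16 and then 0.57, 0.37, 0.42, 0.25 and 0.45, a change of 4.30 ± 0.25. The groups did not overlap, and dog 4 again had the highest PBS level. The protease inhibitor SERPINA3 rose by 3.40 ± 0.59, the copper carrier CP by 1.64 ± 0.34 and the iron hormone HAMP by 1.22 ± 0.24. The fibrinogen alpha chain FGA (-0.11 ± 0.11, adjusted p = 0.388) and albumin ALB (-0.21 ± 0.14, adjusted p = 0.208) were not called. The neighbouring list of clotting genes was split, with 4 of 11 higher and 3 lower. F3, tissue factor, which starts clotting, went from 2.01, 2.16, 1.82, 1.79 and 1.89 to 0.10, -0.43, 0.20, 0.28 and -0.08, a change of -1.92 ± 0.14 (adjusted p = 2.01e-06). The groups did not overlap.

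Complement genes were among the highest groups. Of 20 cascade members 10 passed, 7 rose and 1 fell, with a median of 2.90 (2.96 in the slide-block fit and 2.30 on slide 3 alone). C3, on which all pathways converge, read -1.46, -1.58, -2.70, -0.51 and -2.38 in PBS eyes of dogs 1 to 5 and 5.77, 5.72, 5.83, 5.49 and 5.92 in CNTF eyes. The CNTF eyes were nearly level and the PBS eyes were not, with dog 4 highest. All 5 C3 probes were called higher, by 6.60 to 7.87. CFB, the factor B that pairs with C3 in the alternative pathway, rose by 4.61 ± 0.24, and its 4 probes by 0.74 to 4.61. The classical pathway rose at its start: C1QA by 3.87 ± 0.17 and the proteases C1R by 3.01 ± 0.14 and C1S by 2.80 ± 0.12. MASP1, a protease of the lectin pathway, fell by 0.95 on the log2 scale (SE 0.20), with 2 of 5 CNTF arrays above background. Of 7 regulators and receptors that passed, 5 rose and 0 fell. They were CFI, which cleaves C3b (3.09 ± 0.20), CD59, which blocks the membrane attack complex (1.85 ± 0.11), VSIG4, a macrophage receptor for C3 fragments (3.80 ± 0.37, with 1 of 5 PBS arrays above background), and the 2 chains of complement receptor 3, ITGAM (3.34 ± 0.22) and ITGB2 (1.99 ± 0.26).

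**Figure D2:**
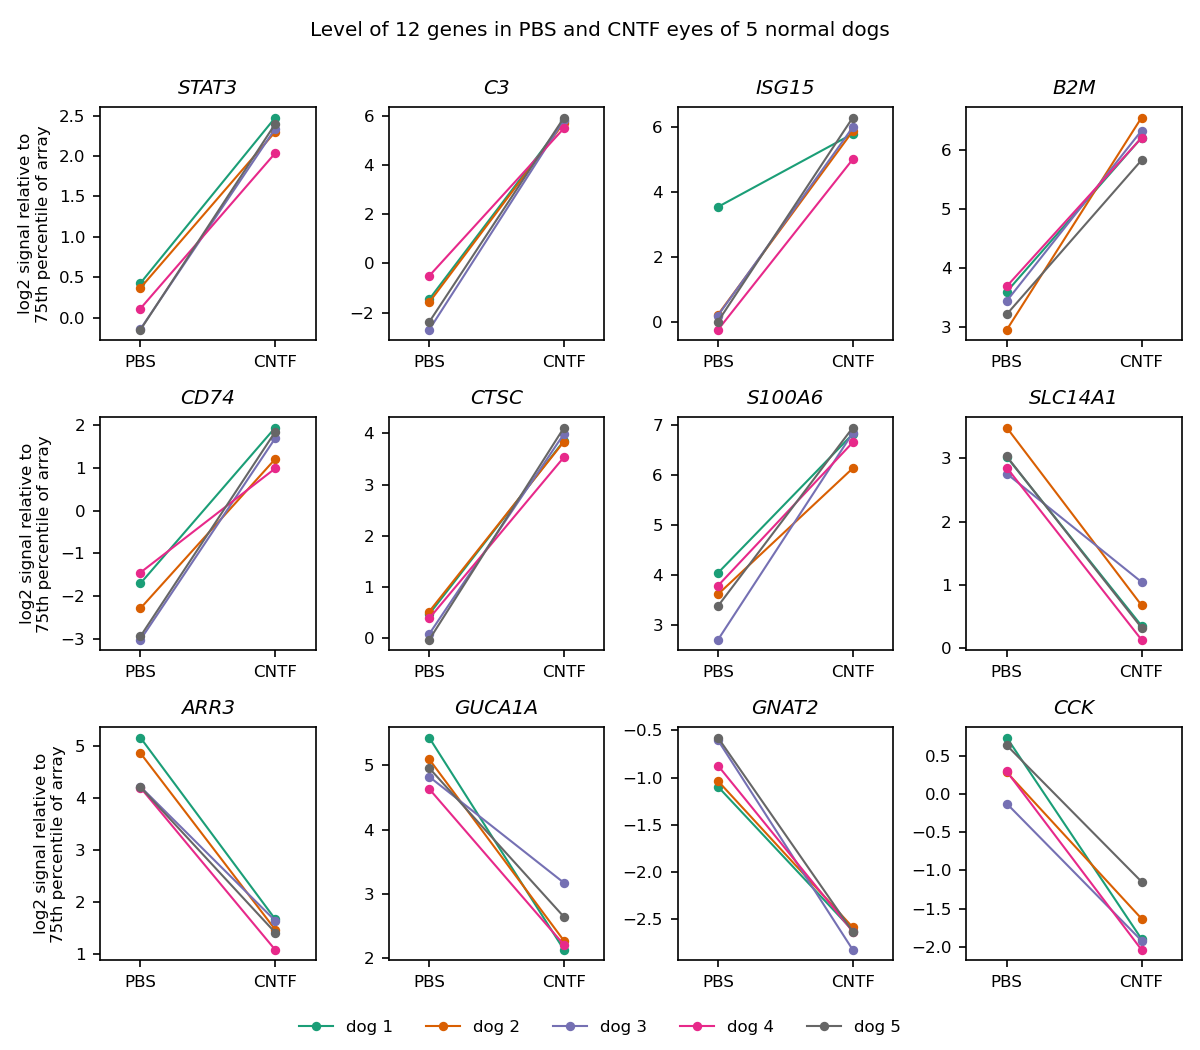
Level of 12 genes on each array, as log2 signal relative to the array's 75th percentile; each line joins the PBS eye and the CNTF eye of 1 dog (5 dogs, 1 colour each). C3, ISG15 and CD74 climb in every dog, ARR3, GUCA1A and CCK drop in every dog, and PBS and CNTF eyes overlap in 0 of the 12 panels. The 12 genes were picked for display, so that count describes them only. Of all 10249 genes, 3119 (30.4%) did not overlap.

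Genes that interferon is known to induce rose in most of the measured list. Of 45 antiviral effectors 27 passed, 23 rose and 0 fell, with a median of 2.28 (2.20 with the single gene dim in PBS eyes at its bound, 2.56 in the slide-block fit, 2.44 on slide 3 alone). ISG15, a ubiquitin-like protein, read 3.55, 0.23, 0.20, -0.23 and 0.02 in PBS eyes and 5.80, 5.88, 6.002, 5.02 and 6.30 in CNTF eyes. The PBS eye of dog 1 stood far above the other PBS eyes, and dog 1 had the smallest change. MX1, a GTPase that blocks viruses, showed the same dog apart, with 1.90, 0.17, -0.20, -0.05 and -0.25 in PBS and 4.40, 4.71, 4.15, 3.44 and 4.50 in CNTF eyes. The groups overlapped for neither gene. Without dog 1 the changes were 5.74 for ISG15 and 4.28 for MX1. Other rises included the RNA-cutting pathway genes OAS1 (3.40 ± 0.27) and OAS2 (2.04 ± 0.23), the RNA sensor IFIH1 (2.20 ± 0.19) and the ligase partner DTX3L (1.89 ± 0.14), while the RNA-binding IFIT1 was not called (0.11 ± 0.51, adjusted p = 0.863). GBP1, an interferon-induced GTPase, was not above background in PBS eyes and rose at least 5.59-fold. Among regulators, IRF5 rose by 3.14 ± 0.31 (2 of 5 PBS arrays above background), IRF1 by 1.96 ± 0.17 and the receptor chains IFNGR2 by 1.32 ± 0.14 and IFNAR2 by 1.05 ± 0.13.

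Antigen presentation rose in both of its arms. Of 16 class I genes that passed, 15 rose and 1 fell, with a median of 3.05 (3.85 in the slide-block fit, 2.76 on slide 3 alone). The slide-block fit called 9 of the 16 higher. B2M, the light chain of class I, was already bright in PBS eyes at 3.60, 2.96, 3.44, 3.69 and 3.22 and read 6.21, 6.55, 6.33, 6.21 and 5.83 in CNTF eyes, a change of 2.85 ± 0.16 with no overlap. The immunoproteasome subunits PSMB8 (4.51 ± 0.24), PSMB9 (4.17 ± 0.18, 3 dogs) and PSMB10 (3.99 ± 0.18) and the loading protein TAPBP (3.25 ± 0.18) also rose, and TAPBPL, a relative of TAPBP that edits peptides, changed by -0.54 ± 0.17, the single fall of the list, which was not called without dog 3 or 4 (adjusted p = 0.0976 and 0.0831). Of the constitutive subunits that such subunits replace, PSMB5 rose by 0.82 ± 0.14 and PSMB6 by 0.86 ± 0.14. Of 13 class II genes that passed, 10 rose and 0 fell, with a median of 1.61 (0.88 with probes above background on all 10 arrays). CD74 read -1.70, -2.29, -3.02, -1.45 and -2.94 in PBS and 1.95, 1.21, 1.70, 0.99 and 1.85 in CNTF eyes, and DLA-DQB1, a class II beta chain, -0.97, -1.64, -2.70, -0.80 and -2.95 and 3.56, 2.81, 3.62, 2.70 and 3.34. Dogs 3 and 5 had the lowest PBS levels and the largest changes for both. The master regulator CIITA rose by 0.57 ± 0.11, and of the factors that bind class II promoters with it RFXANK rose by 0.88 ± 0.14 while RFX5 (0.21 ± 0.09, adjusted p = 0.0553) and RFXAP (0.02 ± 0.13, adjusted p = 0.902) were not called.

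Markers of microglia, the resident macrophages of the retina, rose as well. In whole tissue, more cells of a type and more RNA per cell cannot be told apart, and this holds for every cell marker named here. Of 6 homeostatic markers that passed, 5 rose and 0 fell, with a median of 2.29 (1.65 with the single gene dim in PBS eyes at its bound, 0.99 with normexp, 1.37 on slide 3 alone and 1.45 with probes above background on all 10 arrays). CSF1R, the receptor on which microglia depend, went from -3.07, -2.98, -3.73, -3.04 and -2.93 to -0.16, -0.09, 0.07, -0.43 and 0.48 in dogs 1 to 5. SLC2A5, a fructose transporter that marks them, went from -2.55, -2.85, -3.06, -2.81 and -2.83 to 0.63, -0.20, 0.55, 0.40 and 0.37. The groups overlapped for neither gene, and the other CSF1R probe was not called. SIGLEC1, a macrophage receptor, was not called (0.23 ± 0.11, adjusted p = 0.083, and 0.0458 without dog 2). Of 16 genes of activated microglia 12 rose and 1 fell, with a median of 1.44 (0.82 on slide 3 alone). The slide-block fit called 5 of these 16 genes higher, and 3 of the 6 homeostatic markers. CD86, a co-stimulator of T cells, rose by 3.56 ± 0.16, PTPRC, the pan-leukocyte phosphatase CD45, by 2.67 ± 0.23 and AIF1, the marker IBA1, by 2.37 ± 0.16. IGF1, a growth factor that microglia can secrete, fell by 1.32 on the log2 scale (SE 0.26).

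Innate sensors and chemokines rose in part. Of 13 Toll-like receptor and inflammasome genes that passed, 8 rose and 0 fell, with a median of 1.51 (1.15 with the single gene dim in PBS eyes at its bound, 0.82 with normexp and 0.99 with probes above background on all 10 arrays). PYCARD, the inflammasome adaptor, rose by 3.75 ± 0.26, TLR4, the endotoxin receptor, by 1.56 ± 0.11, TLR2 by 1.51 ± 0.16 and MYD88, their common adaptor, by 0.99 ± 0.13, while TLR7 (0.18 ± 0.15) was not called with all dogs and was without dog 2 (adjusted p = 0.0318). Of 39 chemokines and receptors 19 passed, 10 rose and 4 fell, and the list median was 1.10 (2.30 in the slide-block fit, 0.61 with normexp, 0.50 on slide 3 alone and 0.08 with probes above background on all 10 arrays). CCL2, which attracts monocytes, rose at least 13.7-fold and the B-cell attractant CXCL13 at least 3.86-fold. CCL5 read -5.33, -6.81, -6.55, -4.35 and -6.32 in PBS and -0.49, -0.89, -0.31, -0.99 and -2.52 in CNTF eyes, a change of 4.83 ± 0.37, with 1 of 5 PBS arrays above background and dog 5 lowest among the CNTF eyes. CXCL16 (3.04 ± 0.22) and CXCL12 (2.31 ± 0.24) rose from measurable levels. CCL17 (-1.19 ± 0.33) and CCL21 (-0.76 ± 0.17) fell, with 2 and 3 of 5 CNTF arrays above background, and CXCR5, the receptor for CXCL13, changed by -0.63 ± 0.12 in 5 of 5 dogs.

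Markers of infiltrating cells were mixed. Of 24 T and NK cell markers 10 passed, 5 rose and 2 fell. GZMA, a protease of cytotoxic cells, rose at least 5.4-fold (4 of 5 CNTF arrays above background) and CD3D, a chain of the T cell receptor, by 3.28 ± 0.52 with 1 of 5 PBS arrays above background, while CD8A was not called (0.32 ± 0.24, adjusted p = 0.271) and CD4 fell by 1.05 on the log2 scale (SE 0.20, 4 of 5 CNTF arrays above background), and PRF1, perforin, changed by -0.41 ± 0.15. The PRF1 call was lost without dog 1, 2, 3 or 4 (adjusted p = 0.0691, 0.114, 0.105 and 0.0744). CD4 was at -0.23 in the slide-block fit, not called there, and at -0.10 on slide 3 alone. Of 4 B cell markers that passed 0 rose and 2 fell, among them CD79B, a chain of the B cell receptor, with a change of -0.36 ± 0.13. The CD79B call was lost without dog 1, 2, 3 or 5 (adjusted p = 0.115, 0.0844, 0.106 and 0.0614). Of 7 neutrophil markers that passed, 3 rose and 0 fell, S100A8 by 1.53 ± 0.13, while CAMP, an antimicrobial peptide, was not called (-0.35 ± 0.21). Whether cells entered from blood was not tested.

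Lysosomal genes rose and lipid genes were split. Of 27 lysosomal genes that passed, 19 rose and 2 fell, with a median of 0.70 (0.30 on slide 3 alone), and 3 were called higher in the slide-block fit. The dogs differed here, from 0.29 in dog 2 to 1.22 in dog 3. CTSC, a cathepsin that activates granule proteases, read 0.47, 0.52, 0.08, 0.39 and -0.03 in PBS and 3.86, 3.84, 3.99, 3.54 and 4.11 in CNTF eyes. LYZ, lysozyme, rose by 2.60 ± 0.18, the protease LGMN by 1.83 ± 0.14 and the sphingolipid cofactor PSAP by 0.70 ± 0.16. LAMP1, a lysosomal membrane protein, rose by 0.67 ± 0.17. Of 25 lipid genes 12 rose and 8 fell. ACLY, which makes acetyl-CoA for fat synthesis, rose by 2.68 ± 0.14 and the fatty acid carriers FABP5 by 2.22 ± 0.22 and FABP7, a glial form, by 2.02 ± 0.35. ELOVL4, the photoreceptor enzyme for very long fatty acids, fell by 0.86 on the log2 scale (SE 0.11), and ELOVL2, which feeds docosahexaenoic acid synthesis, by 0.50 (SE 0.13).

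Reactive glia genes rose, and genes of Müller glia identity were split. Of 18 reactive glia genes that passed, 13 rose and 0 fell, with a median of 1.03 (1.07 in the slide-block fit, 0.74 on slide 3 alone). The slide-block fit called 5 of the 18 higher. TIMP1, an inhibitor of matrix proteases, read 2.31, 2.09, 1.68, 2.34 and 1.71 in PBS and 5.70, 5.15, 5.30, 5.38 and 5.61 in CNTF eyes. S100A6, a calcium-binding protein, read 4.04, 3.61, 2.70, 3.78 and 3.38 and 6.82, 6.13, 6.84, 6.65 and 6.95. The groups did not overlap for either. S100A11 rose by 3.19 ± 0.20, S100A1 by 2.52 ± 0.15 and the annexins ANXA1 by 1.69 ± 0.18 and ANXA2 by 1.12 ± 0.14. The S100 and annexin families together had 13 of 21 members higher and 2 lower. The intermediate filament GFAP read -5.27, -5.47, -4.19, -4.22 and -4.58 in PBS and -3.41, -4.00, -2.74, -3.21 and -2.36 in CNTF eyes, with 3 and 4 arrays above background. Its called change of 1.60 ± 0.20 turned to -0.20 ± 0.85 in the slide-block fit, not called there, and to -0.16 on slide 3 alone. Of 20 genes of Müller glia identity, 10 rose and 4 fell. HES5, a Notch target, rose by 1.68 ± 0.24, SOX2 by 0.52 ± 0.10, SOX9 by 0.81 ± 0.16 and the glutamate transporter SLC1A3 by 0.72 ± 0.13. SLC14A1, a urea channel, read 3.02, 3.49, 2.76, 2.85 and 3.03 in PBS and 0.35, 0.67, 1.04, 0.12 and 0.32 in CNTF eyes, with every dog lower. GLUL, the glutamine synthetase that detoxifies glutamate, fell by 0.96 on the log2 scale (SE 0.21) in 4 of 5 dogs, from 3.96, 3.75, 3.17, 3.30 and 3.56 to 2.74, 2.22, 3.21, 2.04 and 2.70, and in dog 3 both eyes were alike. CA2, a carbonic anhydrase, fell by 1.15 (SE 0.16, 3 dogs). Among water channels AQP3 went from -3.53, -3.57, -4.32, -2.35 and -3.87 to 2.94, 2.12, 2.11, 2.44 and 2.80 and AQP1 rose by 3.09 ± 0.28 (1 of 5 PBS arrays above background), while AQP4, the Müller form, rose by 0.72 ± 0.20 with overlapping groups and the bicarbonate carrier SLC4A7 fell by 2.34 (SE 0.13).

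Cone genes had the lowest median of the plotted lists. Of 20 members 16 passed, 0 rose and 13 fell. Their median change was -0.91 (-0.98 in the slide-block fit and -0.96 on slide 3 alone), and per dog it ran from -1.13 to -0.80. The slide-block fit called 4 of the 16 lower. ARR3, the arrestin that ends the cone light response, read 5.17, 4.87, 4.22, 4.21 and 4.22 in PBS eyes and 1.67, 1.47, 1.64, 1.08 and 1.41 in CNTF eyes. OPN1SW, the short-wavelength opsin, read 1.81, 1.70, 1.54, 1.34 and 1.57 and -0.98, -0.43, -0.85, -0.27 and -0.66. OPN1LW, the long-wavelength opsin of most canine cones, overlapped between groups, with -0.43, -1.10, -1.35, -1.61 and -1.32 in PBS and -1.43, -1.53, -1.57, -2.27 and -1.28 in CNTF eyes, and fell by 0.45 on the log2 scale (SE 0.16, adjusted p = 0.0334) in 4 of 5 dogs. That call was lost without dog 1, 2 or 4 (adjusted p = 0.115, 0.0615 and 0.0966 in limma). Whether the falls of the 2 opsins differ was not tested. In the transduction cascade the cone transducin GNAT2 went from -1.10, -1.04, -0.60, -0.87 and -0.58 to -2.62, -2.58, -2.82, -2.63 and -2.63 and the phosphodiesterase subunit PDE6H from 5.85, 5.90, 6.18, 5.79 and 6.17 to 4.53, 4.48, 4.62, 4.05 and 4.44, while the catalytic subunit PDE6C fell by 0.50 (SE 0.12). The cone channel subunit CNGB3 fell by 1.32 (SE 0.19). The thyroid receptor THRB, which sets cone opsin identity, fell by 1.14 (SE 0.13) and KCNV2, a potassium channel subunit of the photoreceptor inner segment, by 1.00 (SE 0.14). The calcium sensor GUCA1C (0.79 ± 0.37) was not called, and without dog 4 was called higher (adjusted p = 0.00405).

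Of 17 rod genes that passed, 0 rose and 8 fell, and the list median was -0.40. It was -0.33 both in the slide-block fit and with probes above background on all 10 arrays. With quantile normalization it was -0.73, and on slide 3 alone -0.81. Quantile normalization called 11 lower and the slide-block fit 1. By dog, the medians of dogs 3 and 5 were -0.01 and -0.17 and those of the other dogs -0.41 to -0.64. GUCA1A, the guanylate cyclase activator that rods and cones share, read 5.43, 5.10, 4.82, 4.63 and 4.96 in PBS and 2.13, 2.27, 3.17, 2.21 and 2.65 in CNTF eyes, and fell by 2.50 (SE 0.21). The phosphodiesterase inhibitor subunit PDE6G fell by 0.46 (SE 0.12) and the transducin regulator PDC by 1.18 (SE 0.27), while the transducin alpha subunit GNAT1 (-0.03 ± 0.11, adjusted p = 0.818) was not called. Rod arrestin, SAG, was at saturation in both groups and was not called (0.20 ± 0.12, adjusted p = 0.174).

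**Figure D3:**
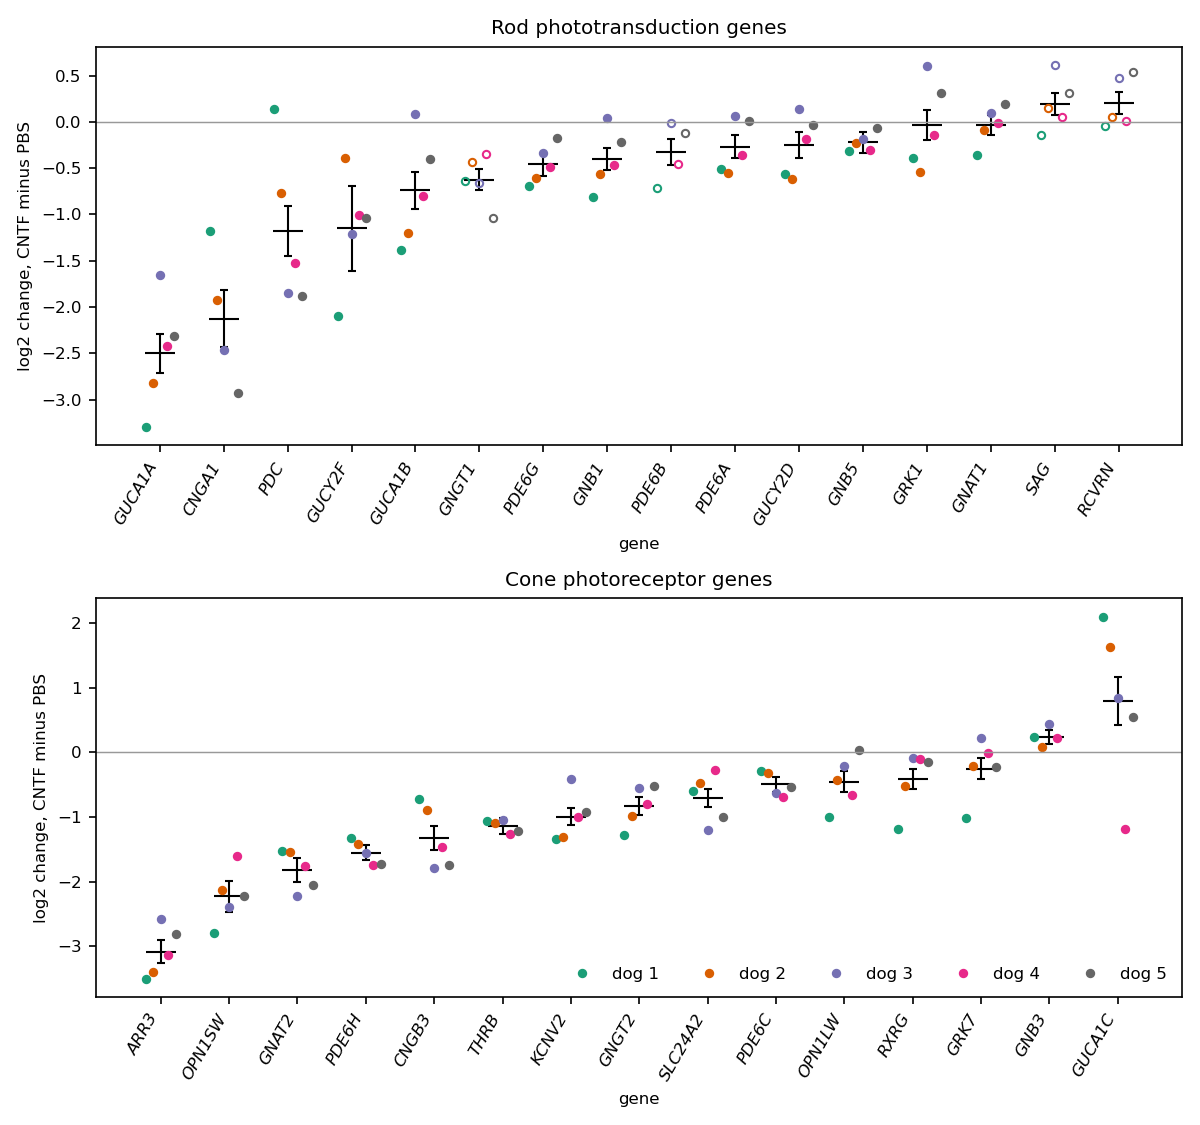
Log2 change (CNTF minus PBS) in each of the 5 normal dogs for the measured rod (top) and cone (bottom) list members that are reported here; points are dogs, black bars the fitted changes with their standard errors, and open points mark genes saturated on every array of a group. ARR3 lies below -2.5 in every dog, while GUCA1A has the largest fall among rod genes and GUCA1C has 4 dogs above 0 and dog 4 below.

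Photoreceptor genes outside the light response were split. Of 13 genes of discs and matrix 3 rose and 5 fell. RP1, a microtubule protein of the outer segment, fell by 1.40 (SE 0.26). The matrix protein IMPG2 (0.88 ± 0.10) and PROM1, which shapes discs (0.53 ± 0.10), rose, while PRPH2, a disc rim protein saturated on 4 PBS arrays, was not called (-0.02 ± 0.13, adjusted p = 0.926, 4 dogs). RBP3, the retinoid carrier of the matrix, rose by 0.69 ± 0.16 and AIPL1, a chaperone for phosphodiesterase, by 0.52 ± 0.14. Among transcription factors OTX2 rose by 0.42 ± 0.13 (adjusted p = 0.0633 without dog 2) and NRL, the rod fate factor, by 0.66 ± 0.14, whereas MEF2C fell by 0.95 (SE 0.10) and RORA by 1.32 (SE 0.17). Of 34 genes of the cilium and its transport, 12 fell and 5 rose, with a median of -0.34 (-0.55 in the slide-block fit, -0.20 with normexp and -0.19 on slide 3 alone). The slide-block fit called 3 of the 34 lower and 0 higher. The Bardet-Biedl complex subunits BBS4 and BBS7 fell by 1.05 (SE 0.15) and 0.83 (SE 0.15), and the small GTPases that load ciliary cargo, ARL3 and ARL6, by 1.00 (SE 0.10) and 1.28 (SE 0.26), while IFT43, of the retrograde train, rose by 0.93 ± 0.11. At the photoreceptor ribbon, the release regulator CPLX4 fell by 1.09 (SE 0.10) and the scaffold RIMS2 by 1.38 (SE 0.23), whereas CPLX3 rose by 1.36 ± 0.22 and the channel subunit CACNA2D4 by 0.94 ± 0.09. RDH8, which reduces retinal released from bleached pigment, fell by 1.14 (SE 0.13).

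Among transmitter systems of inner retinal neurons more members fell than rose. Of 25 receptors for glutamate, GABA and glycine that passed, 15 fell and 1 rose, with a median of -0.56 (-0.38 in the slide-block fit, -0.35 on slide 3 alone and -0.18 with normexp). The number called lower was 6 with normexp and 0 in the slide-block fit. The retina-rich rho receptors GABRR1 and GABRR2 fell by 0.57 (SE 0.12) and 0.64 (SE 0.09), the AMPA receptor subunit GRIA4 by 0.62 (SE 0.09) and the presynaptic glutamate receptor GRM8 by 0.83 (SE 0.13). Of the 2 enzymes that make GABA, GAD1 fell by 0.86 (SE 0.11) and GAD2 by 0.82 (SE 0.11). Of 47 potassium channel genes 22 fell, among them the voltage-gated KCNA1 (-1.002 ± 0.14) and the calcium-activated KCNMA1 (-0.66 ± 0.17) and the inward rectifier KCNJ3 (-1.64 ± 0.34), and 3 rose, among them the background channel KCNK2 (0.98 ± 0.15). Their list median was -0.35 (-0.03 with normexp, -0.05 in the slide-block fit and -0.13 on slide 3 alone). The slide-block fit called 0 of the 47 lower and 1 higher.

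Neuropeptides of amacrine cells included some of the largest neuronal falls. CCK, cholecystokinin, read 0.75, 0.29, -0.12, 0.30 and 0.65 in PBS and -1.90, -1.63, -1.92, -2.04 and -1.15 in CNTF eyes. CHGB, a granule protein, fell by 1.55 (SE 0.12). The groups overlapped for neither gene. CRH fell by 0.98 (SE 0.11) and SCG2 by 0.72 (SE 0.08), whereas ADCYAP1, the peptide PACAP, rose by 1.22 ± 0.14. NPY (-0.38 ± 0.23, adjusted p = 0.191) and the enkephalin precursor PENK (-0.07 ± 0.12, adjusted p = 0.656) were not called. Bipolar and horizontal cell lists had 5 of 15 and 3 of 7 members lower, with GRIK1, a kainate receptor of OFF bipolar cells, at -1.03 ± 0.23 and the horizontal cell factor ONECUT2 at -0.80 ± 0.20. Of 14 ganglion cell and axon growth genes that passed, 7 rose and 3 fell. OPN4, the melanopsin of light-sensing ganglion cells, read -2.45, -2.02, -2.18, -1.98 and -2.10 in PBS and -0.78, -0.69, -0.98, -0.97 and -0.85 in CNTF eyes, and the regeneration-associated genes GAP43 (1.15 ± 0.10), KLF6 (0.67 ± 0.10) and ATF3 (0.67 ± 0.11) rose. NEFL, the light neurofilament, fell by 0.76 (SE 0.16) and the ganglion cell marker RBPMS changed by -0.62 ± 0.18, with 3 of 5 CNTF arrays above background, and was not called without dog 5 (adjusted p = 0.0575). TYRP1, a pigment cell enzyme, changed by -1.16 ± 0.42, with 3 of 5 CNTF arrays above background, and was not called without dog 2, 4 or 5 (adjusted p = 0.121, 0.0897 and 0.144).

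In the protein synthesis and respiratory chain lists more members rose than fell. Of 55 ribosomal protein genes that passed, 33 rose and 5 fell, with a median of 0.53, and of 65 mitochondrial ribosomal genes 36 rose and 2 fell, with 0.31. For complex I of the respiratory chain 17 of 32 rose and 1 fell, with 0.32. The ribosomal median was 0.28 with quantile normalization and 0.22 on slide 3 alone, and the slide-block fit called 0 of the 55 genes higher. The median of the mitochondrial ribosomal genes was 0.20 with quantile normalization and -0.002 on slide 3 alone, and that of complex I -0.002 with quantile normalization, 0.02 on slide 3 alone and 0.54 in the slide-block fit. That fit called 0 of the mitochondrial ribosomal genes and 0 of the complex I genes higher. Glycolysis was mixed, with 8 of 25 higher and 4 lower. PFKFB3, which drives glycolytic flux, fell by 1.16 (SE 0.14) on all 3 of its probes and LDHA, a lactate dehydrogenase subunit, rose by 0.71 ± 0.10. NDUFA4L2, a hypoxia-responsive mitochondrial protein, read 2.39, 1.83, 2.17, 1.92 and 2.36 in PBS and -0.60, -0.81, -0.49, -0.70 and -0.73 in CNTF eyes.

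Stress defences rose at named points. Of 29 antioxidant genes 16 rose and 3 fell. GPX3, the secreted glutathione peroxidase, rose by 2.20 ± 0.16, GPX1 by 1.30 ± 0.10 and catalase, CAT, by 1.07 ± 0.12, whereas GSR, which regenerates glutathione, fell by 0.67 (SE 0.12). The metal buffer MT2A read 4.32, 4.40, 2.51, 4.0 and 4.68 in PBS and 6.96, 6.80, 7.03, 6.87 and 7.37 in CNTF eyes, with dog 3 apart among the PBS eyes, and FTL, ferritin light chain, rose by 1.48 ± 0.12. Of 19 genes of the unfolded protein response 12 rose and 1 fell, with a median of 0.56 (0.68 in the slide-block fit, 0.41 on slide 3 alone). The slide-block fit called 0 of these 19 genes higher. Among the rises were the endoplasmic chaperones HSPA5 (0.76 ± 0.09) and SDF2L1 (1.50 ± 0.18) and the factor XBP1 (0.98 ± 0.17). The pro-death factor DDIT3 was not called (-0.36 ± 0.15, adjusted p = 0.0656). Among death and survival genes, the BCL2 relative BCL2A1 rose at least 12.5-fold and BCL2 by 1.38 ± 0.11, as did the pro-death BAK1 (1.05 ± 0.13) and the death ligand TNFSF10 (1.59 ± 0.15). XIAP, which blocks caspases, read 2.33, 2.74, 2.63, 2.66 and 2.87 in PBS and 0.76, 1.22, 0.95, 1.14 and 0.81 in CNTF eyes. The executioner caspase CASP6 (-0.12 ± 0.10) was not called.

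Growth and cell cycle lists held genes that rose and genes that fell. The cell cycle list had 15 of 25 members higher and 3 lower. The replication helicase subunits MCM3 (0.89 ± 0.16), MCM5 (1.08 ± 0.17) and MCM6 (1.36 ± 0.11) and the inhibitor CDKN1A, p21 (1.99 ± 0.19), rose, while CDK1, the kinase of mitosis, went from 0.55, 1.02, 1.05, 0.74 and 1.40 to -1.69, -1.45, -1.73, -1.66 and -1.96, a change of -2.65 ± 0.17 (adjusted p = 1.06e-06). The groups did not overlap. The mitotic kinases AURKA (-0.09 ± 0.15, adjusted p = 0.617) and PLK1 (0.02 ± 0.16, adjusted p = 0.932) were not called. In TGF-beta signalling the latent binding protein LTBP1 rose by 3.52 ± 0.36 (4 of 5 PBS arrays above background), TGFB1 by 1.33 ± 0.16 and the receptor TGFBR2 by 1.27 ± 0.17, while the ligands TGFB2 and TGFB3 fell by 0.81 (SE 0.15) and 0.84 (SE 0.17, 3 of 5 CNTF arrays above background). In Wnt signalling the factor LEF1 rose by 2.096 ± 0.17 and the ligands WNT5A and WNT5B by 1.14 ± 0.22 and 1.23 ± 0.15, while the co-receptor LRP6 fell by 0.97 (SE 0.17). Of the neurotrophic and growth factors and their receptors, 9 of 28 rose and 8 fell, among the rises IGFBP4, which binds insulin-like growth factors (2.14 ± 0.20), and among the falls FGF9 (-0.90 ± 0.18). The immediate early genes JUN (1.09 ± 0.12) and FOS (1.78 ± 0.27, 4 dogs) rose and EGR1 fell by 1.23 (SE 0.19). In thyroid hormone handling DIO3, the enzyme that inactivates the hormone, rose at least 8.93-fold, and CRYM, which binds the hormone, rose by 1.17 ± 0.20.

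Several of the largest changes fell outside these groups. CYP24A1, which breaks down vitamin D, rose at least 11.8-fold, MYBPH, a myosin-binding protein, at least 11.8-fold and the leukocyte tetraspanin CD53 at least 5.6-fold. MYOF, a membrane repair protein, read -2.58, -2.42, -2.63, -2.20 and -2.42 in PBS and 2.33, 1.63, 2.09, 1.59 and 2.60 in CNTF eyes. BPI, an endotoxin-binding protein, rose by 5.13 ± 0.33. Among the falls, PLA2G5, a secreted phospholipase, read 3.06, 3.15, 2.72, 2.55 and 2.75 in PBS and -0.002, 0.26, 0.30, -0.15 and 0.50 in CNTF eyes, and PLA2R1, the receptor for such phospholipases, -0.38, 0.12, 0.14, -0.18 and 0.07 and -3.06, -2.65, -3.54, -3.60 and -3.82. Each dog was lower for both. RFX4, a transcription factor of neural progenitors and glia, fell by 2.57 (SE 0.19) on 1 of 2 probes, PPP3CC, a calcineurin subunit, by 2.30 (SE 0.23) and VOPP1 by 2.02 (SE 0.11). In the slide-block fit these read 4.54 for MYOF, -2.34 for PLA2G5 and -2.88 for RFX4.

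**Figure D4:**
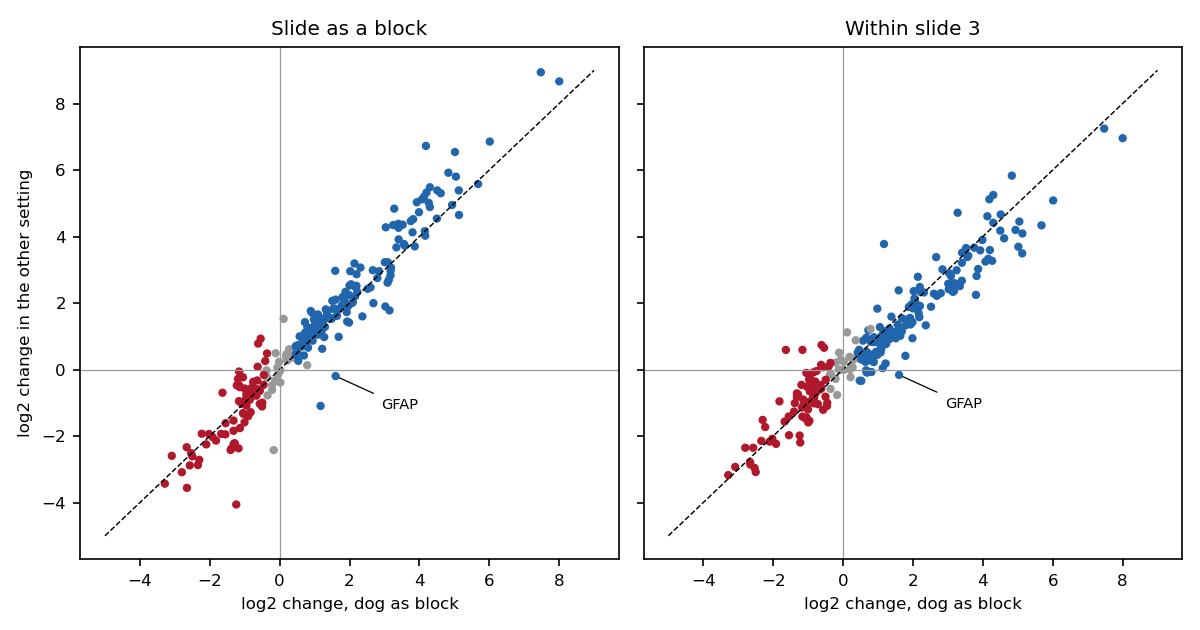
Log2 change of the named genes in the chosen fit (horizontal) against the same change in the slide-block fit (left) and on slide 3 alone (right); each point is a gene, blue where it was called higher, red where it was called lower and grey where it was not called, and the dashed line marks equality. On slide 3 alone, 117 of 230 named genes differed from the chosen fit by less than the SD of their dog differences. Another 98 lay further off, and 15 called genes changed sign. GFAP, joined to its name, lies right of 0 and below 0 in both panels. Other genes also sit on opposite sides of 0, among them CRYM in the left panel and KCNJ3 and TYRP1 in the right panel.

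The sign of some called changes turned with slide. In the slide-block fit the change was 0.48 ± 0.31 for CD79B, -1.09 ± 2.16 for CRYM, 0.08 ± 0.55 for CXCR5 and 0.26 ± 0.485 for PRF1. For RBPMS it was 0.78 ± 0.83 and for TAPBPL 0.93 ± 0.53. Each was opposite in sign to its call, and none was called in that fit. CRYM was at 3.78 on slide 3 alone, the direction of its call. On slide 3 alone the change was -0.34 for AIPL1, -0.08 for LAMP1, -0.02 for NRL, -0.09 for RBP3, -0.07 for SOX9 and -0.33 for STAT5B, which had been called higher. There it was 0.20 for CD79B, 0.14 for CXCR5, 0.59 for KCNJ3, 0.10 for PRF1, 0.74 for RBPMS, 0.07 for SOCS6, 0.65 for TAPBPL and 0.59 for TYRP1, which had been called lower. Some other called changes kept their sign but shrank. CCL17 was at -0.28 in the slide-block fit and -0.46 on slide 3 alone. On slide 3 alone HAMP was at 0.18, WNT5A at 0.04, FOS at 0.41 and SOCS5 at -0.09. In the slide-block fit these 4 were at 0.62, 1.13, 1.93 and -0.77.

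Markers of lens, skeletal muscle and pigment epithelium were mostly not called. Of 13 lens genes that passed 2 fell and 0 rose, and of 8 skeletal muscle genes 1 rose and 2 fell. Of 15 pigment epithelium and melanocyte genes 4 fell and 1 rose, with a median of -0.47 (-1.45 in the slide-block fit, -0.12 with normexp and -0.07 without dog 2), and by dog the medians were -0.19, -1.65, 0.65, -0.54 and -0.14 for dogs 1 to 5, so that the 2 eyes of dogs 2 and 3 differed in opposite directions. BEST1, a chloride channel of that epithelium, read 1.64, 2.39, 0.62, 2.73 and 2.83 in PBS and 1.17, -0.81, 0.70, 1.14 and 1.81 in CNTF eyes, and its fall was not called without dog 2, 4 or 5 (adjusted p = 0.123, 0.0899 and 0.0708 in limma). The part of attached pigment epithelium in other results was not tested. Of 11 endothelial genes 6 rose and 1 fell, among the rises the adhesion molecules VCAM1 (1.93 ± 0.21) and ICAM1 (1.92 ± 0.16), and the smooth muscle gene TAGLN rose by 1.60 ± 0.16. DES, the muscle filament desmin, read -3.88, -3.48, -5.79, -1.04 and -4.16 in PBS and 2.81, 1.26, 1.87, 2.09 and 2.01 in CNTF eyes, with dog 4 highest and dog 3 lowest among the PBS eyes.

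Probes of one gene did not always move together. Of 1443 genes with at least 3 kept probes, 381 had every probe called in 1 direction and 31 (2.15%) had 1 called higher and another lower. The widest split was in LTF, lactoferrin, an iron-binding protein of neutrophils and secretions. The probe on chr20:45249969-45251792 (plus strand), printed first, rose by 2.71 ± 0.21. The next, on chr20:45231081-45238616 (plus strand), changed by -0.31 ± 0.17 and was not called, and the probe on chr20:45260427-45260486 fell by 1.41 (SE 0.34).
LTF, higher: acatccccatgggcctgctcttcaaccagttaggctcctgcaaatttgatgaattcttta
LTF, not called: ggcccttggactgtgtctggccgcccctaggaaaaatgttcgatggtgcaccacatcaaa
In the neutrophil list LTF was read from its brightest probe. Other wide splits were in DOCK8, from 2.68 to -0.58, and RAMP2, from 1.41 to -0.70.

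The size of the change varied between the 5 dogs. On 28580 probes measured in every dog, the slope of a dog's changes on the mean of the other 4 was 1.21 in dog 3 and 1.20 in dog 5, against 0.77, 0.72 and 0.78 in dogs 1, 2 and 4. Dog 3 had 3711 probes at least 2-fold higher and 4457 at least 2-fold lower, and dog 5 had 3578 and 4517. The other dogs had 1275 to 1647 higher and 1600 to 2563 lower. Dog 3 was the wild type animal and dog 5 a carrier. The PBS array of dog 5 was on another slide than those of the other 4 dogs, and the CNTF arrays of dogs 3, 4 and 5 shared a slide.

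**Figure D5:**
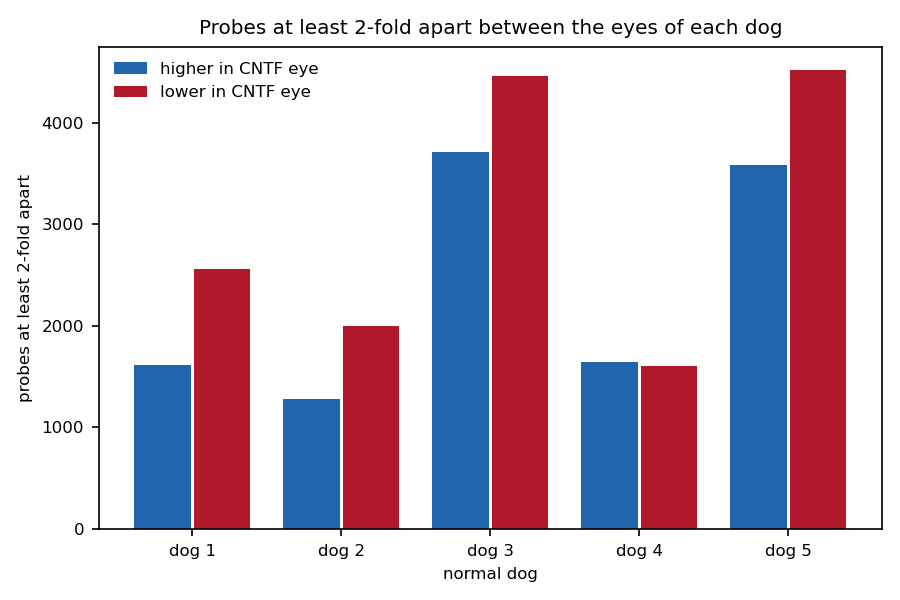
Number of probes at least 2-fold higher (blue) and lower (red) in the CNTF eye of each of the 5 normal dogs, of 28580 probes measured in all of them. Dogs 3 and 5 have 3578 to 4517 probes on either side, and the other 3 dogs 1275 to 2563.

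The change in normal dogs was also set against that in CNGB3-mutant dogs, which share no animal with them and differ in labelled age. In limma 0 of 29258 probes were called for the difference, with 10156 at an unadjusted p under 0.05 and a lowest adjusted p of 0.103, and in the slide-block fit 69 probes were called. List medians in normal and mutant dogs, in that order, were -0.91 and -0.98 for cone genes, -0.40 and -0.95 for rod genes, 2.90 and 2.50 for the complement cascade and 0.70 and 0.15 for lysosomal genes. ARR3 changed by -3.09 ± 0.18 in normal and -4.09 ± 0.18 in mutant dogs (adjusted p of the difference = 0.103), GUCA1A by -2.50 ± 0.21 and -3.26 ± 0.21 (adjusted p = 0.116) and the ligand CTF1 by 0.93 ± 0.20 and 0.24 ± 0.20 (adjusted p = 0.121). AIPL1 was higher in CNTF eyes of every normal dog (0.52 ± 0.14) and lower in those of every mutant dog (-0.26 ± 0.14, adjusted p = 0.103). These differences were not called, which does not show that the responses were alike.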

How the data were processed

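Retinas of CNTF and PBS eyes were measured on Agilent single-colour canine arrays from 100 ng of RNA with a RIN above 8, per the labels' protocols. The authors' deposited array files hold intensity values from Agilent Feature Extraction 9.5.3.1, which per the file headers subtracted background and detrended the signal but did not scale arrays to each other. The submitters' processing notes name Partek 6.4, and the log2 values of the deposited value table, whose scaling is not given in the sources used here, served only as an alternative. The 1417 control spots per array and outlier spots were left out. From the processed intensity, log2 values minus the 75th percentile of each array were computed, and limma 3.58.1 in R 4.3.3 fitted all 20 arrays with a term for each dog and a CNTF effect for each genotype (8 residual and 2.98 prior degrees of freedom, two-sided, Benjamini-Hochberg over the 29264 probes, called at an adjusted p under 0.05, at least 3 dogs measured in both eyes). Every adjusted p in the text comes from limma. The number of arrays limits the precision.

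The labels give both eyes of a dog the same number, and the pairing rests on those labels. Across all probes, deviations from the group mean in the 2 eyes of a dog had correlations of -0.159 to 0.286. The PBS eye correlated best with the CNTF eye of the same dog in dog 4 only. On the most variable probes this held for dogs 4 and 5 only. The expression values therefore did not show the pairing by themselves. The script was tested on simulated data with known changes. Alternatives were no block, the 10 normal arrays alone, slide as a fixed or random block, normexp with an offset of 50, quantile scaling, the percentile over detected probes, the deposited table, other filters and leaving out each dog. Genes were named from the largest changes on the array, the largest changes in each direction and the members not called of each list, the targets of the study, the genes most variable between dogs and the genes with discordant probes. Outside this rule, 20 genes were chosen after their values were seen: B2M, CIITA, CXCL12, DTX3L, GABRR1, GABRR2, GRIA4, IFIH1, KCNA1, KCNJ3, KCNK2, KCNMA1, LAMP1, MCM3, OAS2, OPN1LW, PDE6C, PSAP, PSMB5 and PSMB6. The members and lists were chosen with earlier results of these data known. Some genes that meet the rule are not reported here. Among the genes that meet it, those named were chosen in part with their values under the alternatives known. Called genes first left out because their direction changed were then added, while further uncalled genes of that kind are not named.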

Additional observations from a re-analysis of the deposited data

Results flagged for a closer look

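Among 259 sets of 4 or 5 dog values, 7 had 1 dog far from the others, and chance alone gives about 1 in 20. The change of ISG15 was 2.25 in dog 1, the lowest, against a fitted 5.04 ± 0.46. STAT2 changed by 0.230 in dog 1, again the lowest. FGF9 changed by -1.62 in dog 1, more than in the other dogs. The change of FGG was 6.12 in dog 4, the lowest. MT2A changed by 4.52 in dog 3, the highest, and SLC14A1 by -1.72 in dog 3, the smallest fall. AQP1 changed by 4.05 in dog 5, the highest. AIPL1 changed by 0.522 in normal dogs, higher in every dog, and by -0.263 in mutant dogs, lower in every dog. The difference of 0.785 was tested in limma and not called (adjusted p = 0.103).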

How the results depend on the processing

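Against 6908 probes higher, 8119 lower, and 1789 higher and 1930 lower by at least 2-fold, the fit with slide in place of the dog left 864, 284, 862 and 281. Normexp background correction left 3625 higher, 2320 lower and 407 lower by at least 2-fold. With dog and a random slide block 4231 were lower, and with probes above background on all 10 arrays 920 were lower by at least 2-fold. The fit with no replicate block, which ignores the pairing of eyes, gave 5759 higher and 5774 lower. Leaving out 1 dog gave 5266 to 7262 higher, 5687 to 7688 lower, 1530 to 2134 higher by at least 2-fold and 1470 to 2299 lower by at least 2-fold. For the difference between genotypes, 69 probes were called with slide as a block and 0 in each other setting where it was tested, leaving out a dog included. It was not tested with the 10 normal arrays alone or on slide 3 alone. Directions changed for several genes. With slide as the block, where none of them was called, the changes were -0.20 for GFAP, 0.49 for FGA, 0.484 for CD79B, -1.094 for CRYM, 0.084 for CXCR5, 0.062 for PENK, -0.023 for PLK1, 0.258 for PRF1, 0.232 for PRPH2, 0.781 for RBPMS, -0.388 for RFXAP and 0.929 for TAPBPL. On slide 3 alone they were -0.16 for GFAP, -0.340 for AIPL1, 0.199 for CD79B, 0.142 for CXCR5, 0.591 for KCNJ3, -0.084 for LAMP1, -0.022 for NRL, 0.096 for PRF1, -0.089 for RBP3, 0.737 for RBPMS, 0.069 for SOCS6, -0.073 for SOX9, -0.334 for STAT5B, 0.654 for TAPBPL, 0.591 for TYRP1 and -0.002 for the median of mitochondrial ribosomal genes. Normexp gave 0.086 for FGA, 0.043 for AURKA, 0.217 for CNTFR, 0.051 for PRF1 and 0.016 for RBPMS. Quantile normalization gave 0.013 for AURKA, -0.057 for SAG and -0.002 for complex I, and in the deposited table AURKA was at 0.001, RFXAP at -0.007, SAG at -0.056 and complex I at -0.004. The percentile over detected probes gave -0.085 for PLK1 and -0.083 for RFXAP, dog with a random slide block 0.033 for PRPH2 and -0.023 for RFXAP, and no replicate block 0.028 for PRPH2. Leaving out 1 dog gave -0.090 to 0.050 for GNAT1, -0.207 to 0.308 for IFIT1, -0.390 to 0.110 for CNTFR, -0.461 to 0.053 for LIFR, -0.150 to 0.175 for PLK1, -0.127 to 0.055 for PRPH2 and -0.113 to 0.114 for RFXAP. The cause was not tested. Of 238 named genes, 107 kept their direction but lost the call with slide as a block, 35 with normexp and 10 with no replicate block. Named genes were chosen in part with their values under the alternatives known, so these counts do not measure stability. Probes near background or saturation have compressed changes.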
